A study of Arabidopsis thaliana with 14 samples.

Results

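A set of 296 windows of the Arabidopsis thaliana nuclear genome carried high CG methylation in the selfed embryos of the strains Ler and Cvi and low CG methylation in both selfed endosperms. A window is a stretch of 300 nt, with a new window every 200 nt. The windows were chosen on their CG percent, the share of cytosine calls in CG sites that were methylated, in 4 libraries. A window was taken if it had at least 15 CG calls in the endosperm and the embryo of Ler x Ler and of Cvi x Cvi, with 25% or less in both endosperms and 60% or more in both embryos. Of 584983 nuclear windows with a CG call in any library, 108433 had enough calls in those 4 libraries. Of these, 14208 had 60% or more in both embryos, and the 296 members are the ones among them that were at 25% or less in both endosperms. The other 13912 are called the other methylated windows below.

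Embryo and endosperm were dissected from seeds 6 days after pollination, and their DNA was sequenced after bisulfite treatment, which leaves methylated cytosines unconverted. The 7 crosses, with the female parent first, were the hybrids Cvi x Ler with its reciprocal Ler x Cvi and Cvi x Col with its reciprocal Col x Cvi, and the selfed Cvi x Cvi, Ler x Ler and Col x Col. The labels give no mutation or treatment for any of the seeds. Each tissue of each cross gave 1 library, so no value has a replicate error and every test compares 2 libraries, not 2 tissues or strains.

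In plants, CG methylation is copied at each DNA replication by the methyltransferase MET1. CHG and CHH methylation (H is any base but G) depend on CMT3 and CMT2 and on small RNAs that guide DRM2. Before fertilization the DNA glycosylase DEMETER removes methylation from the maternal genome of the central cell, which becomes the endosperm, the nourishing tissue of the seed. Short transposon remnants next to genes are known targets, and loss on the maternal copy alone can make a gene imprinted, that is, expressed from the copy of 1 parent.

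Below, 5 members are printed on the forward strand of the TAIR10.1 assembly (RefSeq, the Col sequence), because they lie by known imprinted or endosperm genes or were low in several hybrids. CG dinucleotides, the sites whose methylation chose the windows, are in capitals.
PUX4 to RLP46 interval, chr4:2032201-2032500: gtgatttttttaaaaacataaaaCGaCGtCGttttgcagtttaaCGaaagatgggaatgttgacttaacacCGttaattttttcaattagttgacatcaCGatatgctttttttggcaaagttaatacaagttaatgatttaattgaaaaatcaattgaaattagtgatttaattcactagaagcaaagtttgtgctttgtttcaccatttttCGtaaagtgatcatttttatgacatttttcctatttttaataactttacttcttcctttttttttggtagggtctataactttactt
AGL90 5′ flank, chr5:9993401-9993700: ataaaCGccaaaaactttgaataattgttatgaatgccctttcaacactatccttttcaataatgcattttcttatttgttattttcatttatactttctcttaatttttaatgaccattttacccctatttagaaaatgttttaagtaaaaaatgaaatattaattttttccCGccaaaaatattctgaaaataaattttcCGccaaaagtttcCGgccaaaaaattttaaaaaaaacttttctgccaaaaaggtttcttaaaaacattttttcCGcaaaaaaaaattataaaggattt
AGL36 3′ flank, chr5:9345201-9345500: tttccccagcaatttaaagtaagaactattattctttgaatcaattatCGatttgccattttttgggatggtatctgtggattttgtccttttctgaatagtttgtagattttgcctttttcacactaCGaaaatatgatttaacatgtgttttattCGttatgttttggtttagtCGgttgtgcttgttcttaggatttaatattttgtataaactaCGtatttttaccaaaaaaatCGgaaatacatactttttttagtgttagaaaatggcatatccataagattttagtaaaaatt
PHE1 3′ flank, chr1:24264001-24264300: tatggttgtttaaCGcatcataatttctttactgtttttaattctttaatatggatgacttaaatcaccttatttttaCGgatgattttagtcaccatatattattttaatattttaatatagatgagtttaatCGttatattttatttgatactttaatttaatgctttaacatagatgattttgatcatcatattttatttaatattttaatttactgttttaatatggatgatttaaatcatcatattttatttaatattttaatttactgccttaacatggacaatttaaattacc
AT1G29470 5′ flank, chr1:10315001-10315300: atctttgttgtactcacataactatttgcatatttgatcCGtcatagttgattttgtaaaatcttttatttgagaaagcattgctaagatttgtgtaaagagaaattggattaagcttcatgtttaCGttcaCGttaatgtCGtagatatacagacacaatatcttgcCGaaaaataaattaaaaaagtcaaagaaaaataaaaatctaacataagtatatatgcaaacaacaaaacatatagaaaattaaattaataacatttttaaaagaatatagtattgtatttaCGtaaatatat

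These windows hold few CG sites in AT-rich sequence, and so did most members. The median member had 5 CG dinucleotides and a GC content of 25.3%, against 7 and 34.3% in the other methylated windows. Over all windows with enough calls the medians were 7 and 33.7%. CHG cytosines were fewer as well, with a median of 6 on both strands in members and 11 in the other methylated windows.

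The members formed 272 separate regions, of which 249 were a single window, 22 were 2 windows and 1 was 3 windows long. The longest spanned 700 nt, between PUX4, a gene for a UBX domain protein, and RLP46, a gene for a receptor-like protein. Chromosome 5 held 80 members, chromosome 1 held 72, chromosome 2 held 59, chromosome 4 held 43 and chromosome 3 held 42. Chromosomes differ in how many windows were eligible, with 27531 on chromosome 1, 25073 on chromosome 5 and 21127 on chromosome 3.

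Members lay mostly outside annotated genes. They were less often near centromeres than the other methylated windows, but more often than all windows with enough calls. Outside genes were 242 of 296 members (81.8%), with 49 in protein-coding genes, 3 in non-coding RNA genes and 2 in pseudogenes, the class that holds many annotated transposon genes. Of the other methylated windows, 57.3% were outside genes and 26.6% were in pseudogenes, against 0.676% of members in pseudogenes. The 95% Wilson interval of the member share in pseudogenes was 0.186% to 2.43%. Within 2 Mb of a centromere lay 24.0% of members (interval 19.5% to 29.2%) and 54.0% of the other methylated windows (53.2% to 54.9%). Of all windows with enough calls, 10.6% lay there (10.45% to 10.81%). Such intervals cover counting error only, and neighbouring windows are not independent.

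The flanks of protein-coding genes held a large share of members. Outside gene bodies, 146 members (49.3%) were within 2 kb upstream of a gene start, against 24.4% of the other methylated windows and 26.3% of all windows with enough calls. In the 2 kb downstream of a gene end lay 88 members (29.7%), against 18.1% and 18.1%. Of the 49 members in protein-coding genes, 21 touched coding sequence, 18 touched only untranslated exons and 10 lay in introns. The other methylated windows in protein-coding genes touched coding sequence in 79.4% of cases, against 42.9% of members there.

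**Figure D1:**
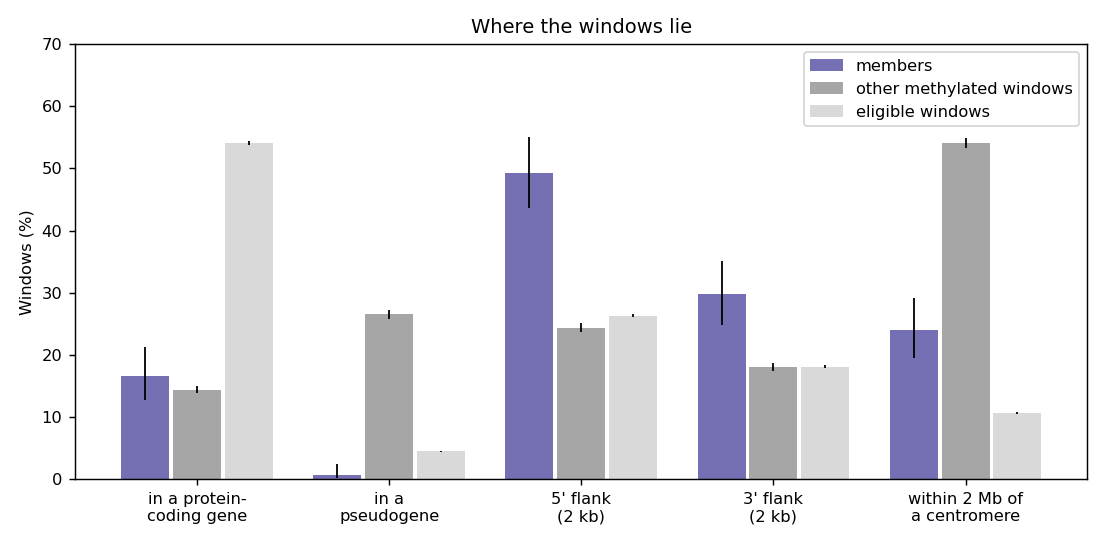
Share of members (left bar), other methylated windows (middle) and all windows with enough calls (right) in each type of location, in percent of windows, with 95% Wilson intervals as error bars. Flanks are counted outside gene bodies. Members reached 49.3% in 5′ flanks and 0.676% in pseudogenes.

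Members were less repeated in the genome than the other methylated windows. No second place matching at least 100 nt at 80% identity was found for 108 members (36.5%), against 23.6% of the other methylated windows. Among members 26.7% had 10 or more such matches, against 40.5%. Sequence was shared with a member of another region by 44 members, so those members are not independent sequences.

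CG levels in the 4 libraries that chose the windows are given as a description. The median member was at 19.4% in the Ler x Ler endosperm and 85.7% in its embryo, and at 17.9% in the Cvi x Cvi endosperm and 85.4% in its embryo. The highest member values in the 2 endosperms were both 25%, and the nearest windows that failed on that threshold alone were at 25.3% in each. The lowest member values in the 2 embryos were both 60%, and the nearest windows that failed on the embryo alone were at 59.5% in each. The thresholds cut through a continuum, since 146 members were within 5 points of 25% in the Ler x Ler endosperm and 200 windows that failed there alone were within 5 points on the other side.

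Depth in the libraries outside the choice was very uneven. Nuclear CG calls summed over windows were 13957682 in the Cvi x Ler endosperm, but between 214040 and 963440 in the 4 other endosperms outside the choice, and between 8096343 and 62566453 in the 7 embryos. At least 15 CG calls were present at 256 members in the Cvi x Ler endosperm, at 23 in that of Cvi x Col, at 20 in that of Col x Cvi, at 6 in that of Ler x Cvi and at 1 in that of Col x Col. The Cvi x Ler embryo stood apart from the other embryos. Its CG profile followed the mean of the Ler and Cvi selfed embryos with r = 0.744 across windows (a description, as windows share libraries), and the other hybrid embryos gave 0.930 to 0.967. In 175 of 287 blocks of 400 kb its profile matched that mean at a shifted place within 500 kb, against 2 to 5 blocks in each of the other deep libraries. The main comparisons that rest on it are therefore also given with the Ler x Cvi embryo in its place.

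Hybrid endosperms, which had no part in the choice, were low at the members, and hybrid embryos were high. The median member was at 33.1% in the Cvi x Ler endosperm (256 members), at 33.3% in that of Cvi x Col (23), at 21.9% in that of Ler x Cvi (6) and at 19.7% in that of Col x Cvi (20). In hybrid embryos the medians were 68.9% in Cvi x Ler (241 members), 84.1% for Ler x Cvi (296), 84.2% for Col x Cvi (296) and 85% for Cvi x Col (289). In the other methylated windows the hybrid endosperms had medians of 55.9% to 70.4% and the hybrid embryos 85.9% to 92.0%.

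**Figure D2:**
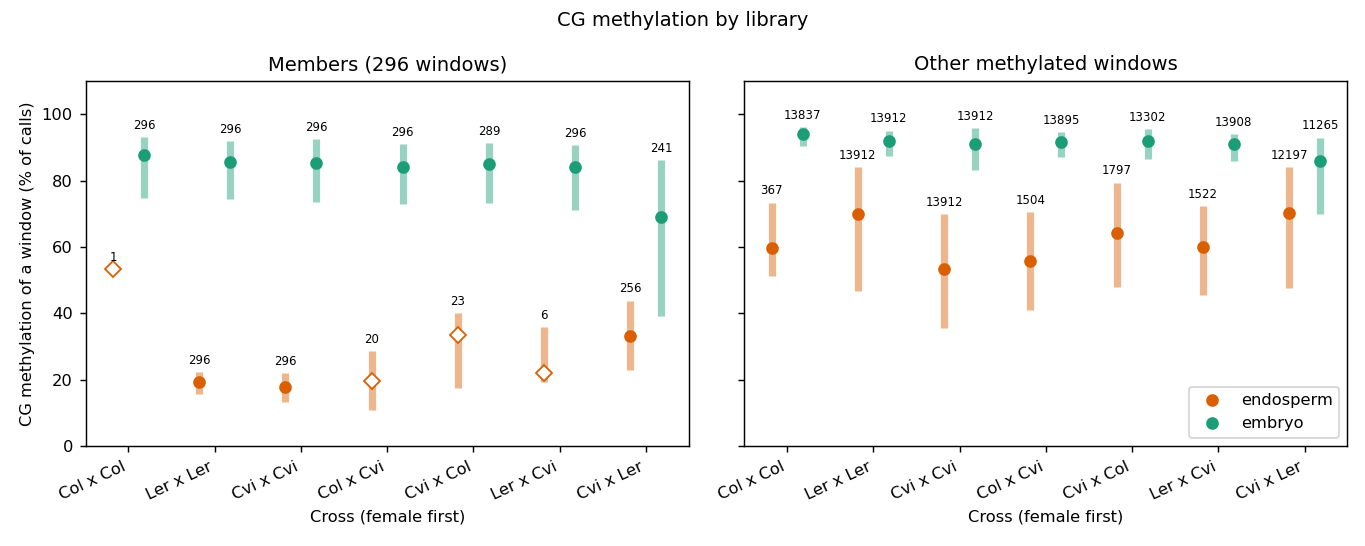
Median CG methylation (points) and quartiles (bars) over windows in percent of calls, with endosperm left of embryo for each cross, in members (left panel) and in other methylated windows (right panel). Numbers above the bars are windows with at least 15 calls, and open diamonds mark medians over fewer than 50 windows. Member medians in hybrid endosperms ran between 19.7% and 33.3%.

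Endosperm was also below embryo in calls pooled over members that do not overlap. In the Cvi x Ler endosperm 2070 of 6181 calls were methylated (33.5%, Wilson interval 32.3% to 34.7%), against 62.6% in its embryo (61.3% to 63.9%) and 78.9% in the Ler x Cvi embryo (78.3% to 79.5%). The Col x Cvi endosperm had 23.8% (19.3% to 29.0%), against 80.4% in its embryo (79.8% to 81.0%). The Cvi x Col endosperm had 29.3% (24.6% to 34.5%), against 80.5% (79.8% to 81.2%), and the Ler x Cvi endosperm had 23.2% (15.8% to 32.6%), against 78.9%. No endosperm interval reached that of an embryo. These intervals cover the counting error of calls only. Calls that share a site or a read are not independent, and variation between libraries is left out. The means of single chromosomes in the Cvi x Ler endosperm ran from 30.8% to 38.1%.

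In the test across all windows, a window was called where the p of Fisher's exact test, adjusted after Benjamini and Hochberg, was under 0.01 and the CG percentages differed by at least 35 points, with at least 15 calls in both libraries. In Col x Cvi, 18 of 20 tested members were called lower in the endosperm, against 10.8% of all tested windows and 43.9% of the other methylated windows. In Cvi x Col, 19 of 23 members were called lower, against 7.97% of all tested windows and 27.4% of the other methylated windows. In Ler x Cvi, 5 of 5 members were called lower, against 15.1% and 34.8%. In all 48 of these tests a member had the lower value in the endosperm, and the shares of members were above the shares in both backgrounds. The members that could be tested are those with deep coverage in shallow libraries, and they are not a sample of all 296.

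The Cvi x Ler cross tested the most members. Against its own embryo, 91 of 212 members (42.9%) were called lower in the endosperm and 1 higher, with 7.66% of all tested windows and 17.8% of the other methylated windows lower. Against the Ler x Cvi embryo, 179 of 254 members (70.5%) were called lower and none higher, with 4.47% of all tested windows and 28.2% of the other methylated windows lower. The median difference over members was −32.1 points in the first comparison and −46.9 points in the second. Over the other methylated windows it was −11.7 and −17.6 points, and over all tested windows 0 points in each. The part of the shifted calls of the Cvi x Ler embryo in the smaller count was not tested.

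**Figure D3:**
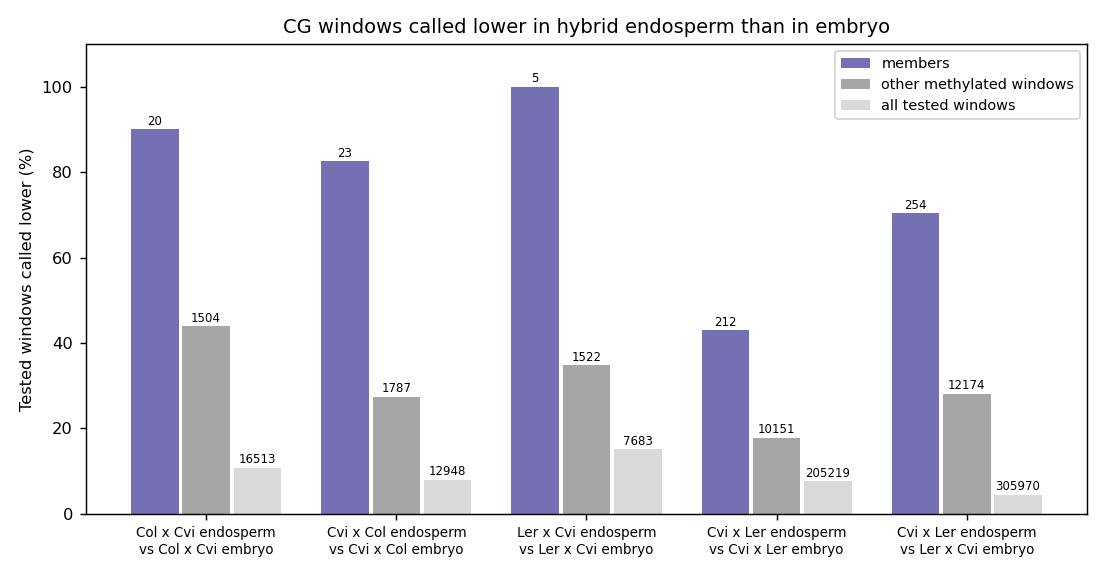
Percent of tested windows called lower in hybrid endosperm than in embryo in CG, for members (left bar), other methylated windows (middle) and all tested windows (right), with the number tested above each bar. With the Ler x Cvi embryo as the second library, 179 of 254 members were called in the Cvi x Ler endosperm.

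Members in the Cvi x Ler endosperm kept more methylation than in the selfed endosperms that chose them. The Cvi x Ler endosperm was higher than the Ler x Ler endosperm at 219 of 256 members and higher than the Cvi x Cvi endosperm at 226 of 256. The median differences were 14.9 points (Ler) and 15.9 points (Cvi). The selfed values were capped at 25% by the choice and the hybrid values were not, so these differences carry no test. In the Cvi x Ler endosperm 79 members were at 25% or less, 99 between 25% and 40%, 62 between 40% and 60% and 16 at 60% or more, and in the Ler x Cvi embryo 257 of 296 were at 60% or more.

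**Figure D4:**
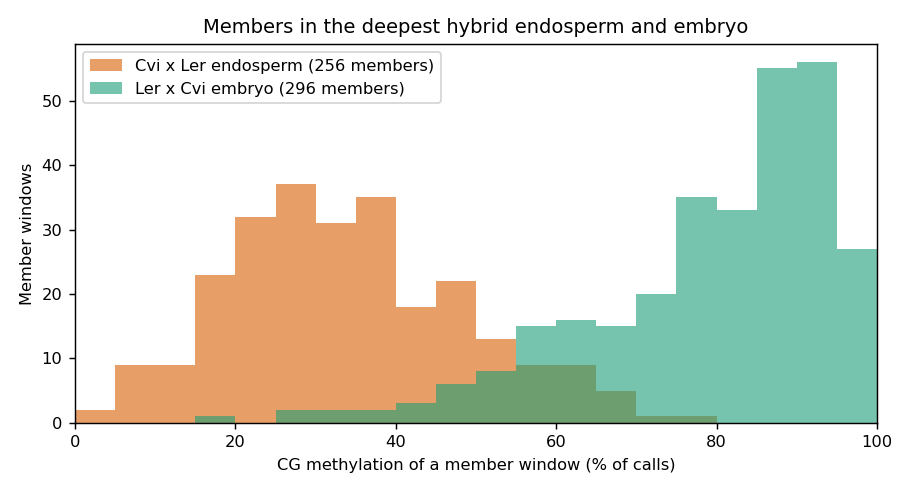
Number of member windows by CG methylation (in percent of calls, bins of 5 points) in the Cvi x Ler endosperm (256 members) and the Ler x Cvi embryo (296 members). The endosperm values centred on 33.1% and the embryo values on 84.1%.

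Reciprocal hybrid endosperms could be compared at few members. Of 5 members tested between the Ler x Cvi and Cvi x Ler endosperms, none was called in either direction. The adjusted p was under 0.01 for 1 of the 5 (Fisher's exact test), and its difference was under the 35 points of a call, as the 5 differences ran between −28.4 and 21.3 points. Over all tested windows 3.37% were lower and 0.53% higher in Ler x Cvi. Of 3 members tested between the Col x Cvi endosperm and its reciprocal, none had an adjusted p under 0.01 and 1 had an unadjusted p under 0.05 (Fisher's exact test), with 0.524% of all tested windows lower and 0.483% higher in Col x Cvi.

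The Col x Col endosperm had 1 testable member, which was called lower (9.71% of all tested windows were). This member lies 1523 nt downstream of YUC10, a flavin monooxygenase gene of auxin synthesis and a known imprinted gene. In the authors' window means, which average single cytosines without weighting by reads, the Col x Col endosperm had a value at 228 members. Their median was 33.3% in the endosperm and 88.0% in the embryo, and 210 of 228 were lower in the endosperm. The reads behind each mean are not given, but they were few at most of these members. The weighted counts, for which the paper required at least 5 reads at each site, had CG calls at only 19 members in this endosperm. The median there was 5 calls. Most of the 228 means thus rest on cytosines left out of the weighted counts, and they carry no test.

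The Col x Col embryo resembled the Ler and Cvi embryos at most members, although Col was not used in the choice. Its median was 87.9%, and 255 of 296 members were at 60% or more. In a count given as a description, 19 of 294 members (6.46%) were called lower in the Col x Col than in the Ler x Ler embryo and none higher. Of all tested windows 4.04% were called lower, and of the other methylated windows 2.30%. The choice set a floor in Ler and none in Col, so higher calls were limited by the rule.

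At 12 members the Col x Col embryo was at 25% or less, and at 8 of them at 5% or less. These windows were picked by their Col value, so their levels are a description. They had medians of 44.1% in the Cvi x Col embryo (11 windows), 40.1% in the Col x Cvi embryo, 80.4% in the Ler x Cvi embryo and 1.19% in the Col x Col embryo. The medians of embryos with 1 Col parent thus lay between those of the Col embryo and of embryos without a Col parent. At single windows this did not always hold. In the coding sequence of AT5G32460 the Cvi x Col embryo had 0% of 17 calls and the Col x Col embryo 21.4%. The window 820 nt upstream of OZF2, a zinc finger gene, was at 34.7% in the Cvi x Col embryo, 39.0% in the Col x Cvi embryo, 84.8% in the Ler x Cvi embryo and 0% of 140 calls in the Col x Col embryo.

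Methylation outside CG was also low in endosperm at the members. Over all locations together, CHG was lower in their embryos than at the other methylated windows. In hybrid and Col embryos the median member had 18.4% to 27.3% CHG, against 46.7% to 55.8% at the other methylated windows. Outside genes the medians in the Col x Col embryo were 28.3% and 50.0%. Within protein-coding genes the 2 sets were close, at 14.5% in members and 11.1% in the other methylated windows of this embryo. In the Ler x Cvi embryo they were at 14.6% and 16.5% there. In hybrid endosperms the member medians were 3.51% to 6.67% and those of the other methylated windows 19.5% to 44.4%. These CHG medians rest on 181 members in Cvi x Ler, 14 in Cvi x Col, 6 in Col x Cvi and 6 in Ler x Cvi. For CHH, the median member had 5.73% to 9.56% in hybrid and Col embryos, against 7.72% to 11.7%. In hybrid endosperms it had 0% to 2.24%, against 4.65% to 9.09%. The embryo ranges include the Cvi x Ler embryo, whose profile was shifted in 175 of 287 blocks. In the window means its median member had 19.8% CHG and 5.65% CHH, against 27.0% and 7.76% in the Ler x Cvi embryo. In the Ler x Ler and Cvi x Cvi libraries, which belong to the contrast of the choice, CHG medians were 3.85% and 4.17% in the endosperms and 25.9% and 33.1% in the embryos.

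**Figure D5:**
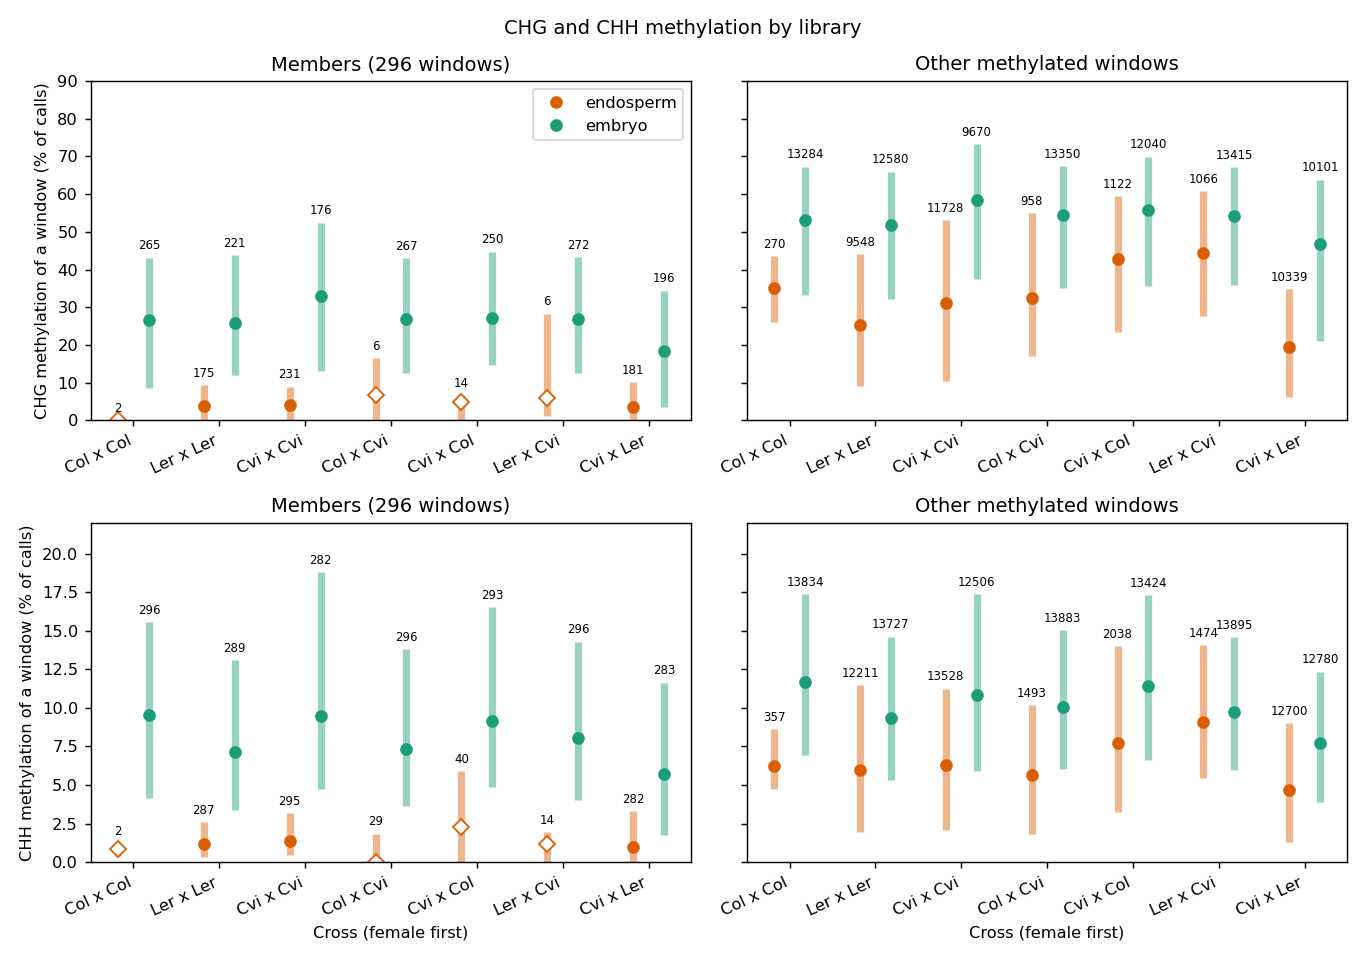
Median CHG (top) and CHH (bottom) methylation with quartiles over windows in percent of calls, endosperm left of embryo, in members (left panels) and other methylated windows (right panels). Numbers are windows with at least 15 (CHG) or 50 (CHH) calls, and open diamonds mark medians over fewer than 50 windows. Median embryo CHG of members was between 18.4% and 33.1%, with the shifted Cvi x Ler embryo included.

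A CHG call also needed 35 points, which a member with a lower embryo level cannot reach. In the Cvi x Ler endosperm 17 of 143 members were called lower in CHG than in its embryo, where 34 had 35% or more in the embryo, with 4.05% of all tested windows called. That was 11.9% of members, below the 20.9% of the other methylated windows. Against the Ler x Cvi embryo 37 of 175 members (21.1%) were called, where 61 had 35% or more, with 4.85% of all tested windows and 34.0% of the other methylated windows called. Cvi x Col gave 2 of 14 members (1.77% of all windows). Col x Cvi and Ler x Cvi gave 0 of 6 members each (1.44% and 1.63% of all windows), with 2 and 3 members at an unadjusted Fisher's exact p under 0.05.

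CHH calls needed 10 points and 50 calls. In CHH 55 of 273 members were called lower in the Cvi x Ler endosperm than in its embryo and 4 higher, with 2.5% of all tested windows lower. Against the Ler x Cvi embryo it was 77 of 282 lower and 1 higher, with 2.18% of all tested windows lower. The shallow endosperms gave 13 of 40 members lower and 1 higher for Cvi x Col (3.05% of all windows lower), 4 of 14 lower for Ler x Cvi (2.61%) and 8 of 29 lower for Col x Cvi (2.21%). The other methylated windows were called lower in 5.83% to 12.0% of tests in these 3 crosses.

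The members differed among themselves in CHG. Sorted by the Col x Col embryo, which was not used in the choice, 95 members had 35% or more CHG, 99 had 10% to 35% and 71 had less than 10%. The 95 CHG-rich members had median CHH of 11.3% in the Ler x Cvi embryo, the middle group 8.52% and the CHG-poor group 3.52%. Among the CHG-poor members 28.2% lay in protein-coding genes and 56.3% had no second copy, against 13.7% and 20.0% of the CHG-rich ones. In the Cvi x Ler endosperm the median CG level of the 3 groups was nearly the same, at 33.3% for CHG-rich, 32.7% for middle and 32.6% for CHG-poor members.

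Members inside protein-coding genes had lower embryo methylation than those outside genes, and so did the other methylated windows. In the Ler x Cvi embryo the 49 genic members had median CG of 69.9%, CHG of 14.6% and CHH of 4.93%, and the 242 outside genes had 85.1%, 28.6% and 8.31%. In that embryo the other methylated windows in protein-coding genes had medians of 84% CG, 16.52% CHG and 3.021% CHH. Those outside genes had 90.91%, 50% and 10.49%. The lower level in genes was thus not particular to the members. In the Cvi x Ler endosperm the CG medians were 36.2% in genic members and 32.6% in members outside genes.

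A member lay in or within 2 kb of 325 protein-coding genes, of which 47 had it in the gene body, 178 in the 5′ flank and 103 in the 3′ flank. These were 1.18% of all 27444 protein-coding genes and 6.57% of the 4943 genes with a window at 60% or more in both embryos within 2 kb. Of 23 known imprinted genes 4 had a member, among 11 with such a methylated window. Of 22 endosperm regulators 3 had one, among 10 with a methylated window, and both lists hold PHE1 and AGL36. None of 12 candidate genes of the study and none of 23 genes of the DNA methylation machinery had a member, although 4 and 6 had a methylated window. The lists were drawn up with earlier results of these data known, so these counts are a description.

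AGL90 and AGL36 encode type I MADS-box factors, a family expressed in the endosperm. Upstream of AGL90, a member 631 nt from the gene had CG of 32.5% in the Cvi x Ler endosperm, against 88.0% in its embryo and 80.2% in the Ler x Cvi embryo. The difference from its own embryo was −55.5 points (adjusted p = 6.11e-13, Fisher's exact test with Benjamini-Hochberg adjustment). The selfed endosperms had 16.1% (Ler) and 6.76% (Cvi), against 76.5% (Ler) and 81.4% (Cvi) in the selfed embryos, and the Col x Col endosperm had 18.2% on 11 calls, against 86.0% in its embryo. All endosperms with a value were thus below all embryos there. The sequence had 108 further matches in the genome, and the part of this in the value was not tested. The overlapping second member 831 nt upstream, with 173 further matches, had CHH of 32.7% in the Cvi x Ler endosperm, against 16.2% in its embryo and 30.0% in the Ler x Cvi embryo.

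Downstream of AGL36, a member 190 nt from the gene end had CG of 32.6% in the Cvi x Ler endosperm and 40% on 5 calls in the Col x Cvi endosperm. Embryos at this window had 85.6% in Ler x Cvi, 87.8% in Cvi x Col, 93.8% in Col x Cvi and 93.3% in Col x Col, and the Cvi x Ler embryo had 100% on 13 calls, too few to test. The Cvi x Ler endosperm differed by −53.1 points from the Ler x Cvi embryo (adjusted p = 4.71e-09, Fisher's exact test with Benjamini-Hochberg adjustment). CHH was 1.59% in the Cvi x Ler endosperm and 6.55% in the Ler x Cvi embryo.

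PHE1, a paternally expressed MADS-box gene, had a member 1957 nt past its 3′ end, which is also 1003 nt from CBSX6. CG was 25% in the Cvi x Ler endosperm on 16 calls, and 40% in Cvi x Col, 40% in Col x Cvi and 50% in Col x Col on 5 or 6 calls each. The selfed endosperms that chose it had 11.1% (Ler) and 21.4% (Cvi). Embryos had 59.4% in Cvi x Ler, 89.4% in Ler x Cvi, 94.1% in Cvi x Col, 83.3% in Col x Cvi, 66.7% in Cvi x Cvi, 87.5% in Ler x Ler and 89.6% in Col x Col. Every endosperm value was below every embryo value. The difference from the Cvi x Ler embryo did not pass (adjusted p = 0.153, Fisher's exact test), and that from the Ler x Cvi embryo did (−64.4 points, adjusted p = 7.89e-05, Fisher's exact test). CHG was 0% of 59 calls in the Cvi x Ler endosperm, which allows a share of up to 5.09%, and 24.7% in the Ler x Cvi embryo.

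The member 1523 nt downstream of YUC10, which is nearer to AT1G48912 at 355 nt, varied among endosperms. CG was 66.7% in the Cvi x Ler endosperm, 27.8% in Cvi x Col, 66.7% in Col x Cvi and 53.3% in Col x Col, on 15 to 18 calls each. Embryos had 96.4% in Ler x Cvi, 90.9% in Cvi x Col, 91.1% in Col x Cvi and 96.6% in Col x Col. The Cvi x Ler embryo had 20.0%, and the Cvi x Ler endosperm was not called against it (adjusted p = 0.0437, Fisher's exact test). Against the Ler x Cvi embryo this endosperm was not called either (−29.8 points, adjusted p = 0.0227, Fisher's exact test). The Cvi x Col (adjusted p = 3.57e-06) and Col x Col (adjusted p = 5.1e-05) endosperms were called lower than their embryos by Fisher's exact test, and the Col x Cvi endosperm was not (adjusted p = 0.0547). The selfed values that chose it were 18.9% (Ler) and 13.9% (Cvi) in endosperm and 94.4% (Ler) and 73.7% (Cvi) in embryo.

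PEG2, a paternally expressed gene, had a member 721 nt upstream, inside an untranslated exon of RABG3E, a small GTPase gene. CG was 30.4% in the Cvi x Ler endosperm, against 77.8% in its embryo and 91.5% in the Ler x Cvi embryo. The difference of −47.3 points from its own embryo was called (adjusted p = 0.00112, Fisher's exact test with Benjamini-Hochberg adjustment). CHG was low in both tissues, with 1.96% in the Cvi x Ler endosperm and 9.16% in the Ler x Cvi embryo.

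At the middle window of the 3-window region between PUX4 and RLP46, CG was low in all endosperms with calls. It was 16.7% in Cvi x Ler, 20.0% in Ler x Cvi on 5 calls and 8.33% in Col x Cvi, and embryos had 100% in Cvi x Ler, 96.9% in Ler x Cvi, 92.1% in Cvi x Col, 94.4% in Col x Cvi and 89.3% in Col x Col. CHH was 0% of 194 calls in the Cvi x Ler endosperm, which allows a share of up to 1.55%, and 13.5% in the Ler x Cvi embryo. This window is among those named for being called lower in the most crosses, so its hybrid calls carry no p here.

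Of 37 members tested in 2 or more of the 5 crosses outside the choice, 15 were called lower in 2 crosses and 2 in 3, together 45.9%, against 3.76% of all windows and 16.7% of the other methylated windows tested in as many crosses. Only 4 members were tested in 2 or more crosses without Cvi x Ler. With the Ler x Cvi embryo as the second library of the Cvi x Ler endosperm, an alternative chosen after seeing the data, 25 of 38 members were called lower in 2 crosses and 2 in 3, together 71.1%, against 4.35% of all windows and 20.8% of the other methylated windows. In that count the Ler x Cvi embryo serves both Ler and Cvi hybrids. The 2 members called in 3 crosses against their own embryos, picked for that count, lie 854 nt upstream of AT1G29470, a methyltransferase family gene, and in the coding sequence of AT4G20735. The AT1G29470 window had CG of 35.9% in the Cvi x Ler endosperm, 57.1% in that of Ler x Cvi and 54.1% in that of Cvi x Col, against 84.8%, 93.4% and 93.7% in the embryos of those crosses. The AT4G20735 window had 25.9% in the Col x Cvi endosperm, 16.0% in Cvi x Col and 33.6% in Cvi x Ler, against 80.4%, 81.5% and 89.7% in their embryos. Against the Ler x Cvi embryo the Cvi x Ler endosperm differed there by −32.2 points, under the 35 points of a call.

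Other windows named for being called lower in several crosses lay 1549 nt upstream of SIP1, a raffinose synthase family gene, and 137 nt upstream of AT1G69250, an RNA-binding protein gene. The SIP1 window had CG of 18.8% in the Cvi x Ler endosperm and 41.2% in that of Cvi x Col, against 95% and 90.6% in the embryos of those crosses. The AT1G69250 window had 29.1% in the Cvi x Ler endosperm and 40% in that of Cvi x Col, against 100% and 96.0% in their embryos. Each of these endosperm values was below every embryo value at its window, the selfed embryos included.

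The largest losses in the selfed crosses, which the choice fixed, were led by a window 804 nt upstream of IND, a gene for a basic helix-loop-helix factor of fruit opening. Its CG was 4.35% (Ler) and 2.63% (Cvi) in the selfed endosperms, against 87.9% (Ler) and 84.4% (Cvi) in the embryos. In libraries outside the choice it was 21.1% in the Cvi x Ler endosperm, 0% of 5 calls in Col x Cvi and 0% of 11 calls in Cvi x Col, against 89.8%, 85.7% and 85.5% in the embryos of those crosses. The counts of 0 allow shares of up to 60% (Col x Cvi) and 27.3% (Cvi x Col). The other regions with the 10 largest losses lay by AT1G38131, AT3G28990, HWI1, AT1G29470 and emb1441 or inside PAP5, KCO5, HCF101 and AT1G32120. Inside PAP5, a purple acid phosphatase gene, the Cvi x Ler endosperm kept 68.0%, against 73.0% in its embryo and 88.7% in the Ler x Cvi embryo.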

How the data were processed

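Whole-genome bisulfite libraries of embryo and endosperm from 7 crosses were analysed, 14 libraries with 1 per group. The authors mapped reads with Bismark (version: not given in the sources used here). For the strains Cvi and Col this was to TAIR10, with unmapped Cvi reads tried on a Cvi pseudogenome, and for Ler to a Ler genome with a change of coordinates to TAIR10 afterwards. In F1 libraries, TAIR10 (crosses of Col and Cvi) or the Ler genome (crosses of Ler and Cvi) was tried before the Cvi pseudogenome. The authors also sorted hybrid reads by parent at SNPs. Redundant reads and cytosines of low coverage were dropped. For each window of 300 nt, starting every 200 nt, the deposited weighted tables give a count of calls without and with methylation and a percent. The deposited window mean files hold a percent averaged over cytosines. The units were checked on the values.

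Windows were chosen and tested on the weighted counts. Windows were compared between 2 libraries with two-sided Fisher's exact tests, Benjamini-Hochberg adjusted over all windows tested in that pair and context. Calls needed an adjusted p under 0.01 and 35 points in CG and CHG or 10 in CHH. The study also asks for shared informative cytosines. As these are not in window values, at least 3 (CG, CHG) or 10 (CHH) reference cytosines and 15 or 50 calls were required, which left out 2 members in CG. Neighbouring windows overlap, so a call can count in more than 1 window, and pooled shares used every second window. Shares carry 95% Wilson intervals, and the limit for a count of 0 is 3 counts. The test script was tested on simulated data.

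Genes and sequences came from TAIR10.1 (RefSeq), whose nuclear chromosomes fit the window positions. A transposon annotation was not used here. Centromeres were set at the midpoint of each chromosome's longest assembly gap. Copies were sought with BLAST 2.17.0. Other steps used Python 3.11.15 with scipy 1.17.1.

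The members, gene lists and tests were chosen with earlier results of these data known. Windows were named if they were among the 10 regions with the largest loss (the smaller of the 2 selfed losses), the 5 regions with most windows, up to 10 members called in the most crosses outside the choice, by a listed gene, or at a threshold. The windows low in the Col x Col embryo, OZF2 included, were chosen after their values were seen. Alternatives were other thresholds, call minimums, differences, window means, non-overlapping windows and the Ler x Cvi embryo for the Cvi x Ler embryo.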

Additional observations from a re-analysis of the deposited data

How the results depend on the processing

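Of 52 alternatives, 22 left the count within 1.5 times and 30 did not. The number of members followed the thresholds: 85 with 30 calls, 473 with 10 calls, 16 with 70% and 15%, 1554 with 50% and 35%, 157 without overlapping windows and 273 with window means. With the 16 strictest members, CG calls lower in endosperm were 4 in Cvi x Ler, 0 for Ler x Cvi, 0 for Cvi x Col, 3 for Col x Cvi and 0 for Col x Col, and 0 were lower in the Col than the Ler embryo. With the call minimum doubled, CG calls were 49 for Cvi x Ler, 1 for Ler x Cvi, 7 for Cvi x Col, 2 for Col x Cvi and 0 for Col x Col. CHG calls were then 0 in Cvi x Col and 7 in Cvi x Ler, and CHH calls 0 for Ler x Cvi, 4 for Cvi x Col and 2 for Col x Cvi. Fewer members could be tested in these settings by construction. The numbers tested and the shares of all windows called are not given for these settings or for the larger difference below. These counts therefore cannot be set against a background. With a larger difference (50 points, 20 in CHH), CG calls were 0 in Col x Col and 60 in Cvi x Ler, CHG calls 9 in Cvi x Ler, and CHH calls 7 in Cvi x Col and 15 in Cvi x Ler. With the Ler x Cvi embryo, the Cvi x Ler endosperm gave 179 CG and 37 CHG calls, and 27 members in place of 17 were lower in 2 or more crosses (chosen after seeing the data), and the cause was not tested. Within 1 kb, 213 genes had a member. No paired analysis was possible because each group has 1 library.

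Single libraries limit all comparisons, and the shallow endosperms leave most members untested.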
